A study of Mus musculus with 15 samples.

Results

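The 10 genes described here were listed for muscle satellite cells and the myogenic program, namely Pax7, Myf5, Myod1, Myf6, Cdh15, Chrdl2, Calcr, Hes1, Heyl and Sdc4. They were chosen by name, and all 10 were found once among the 39179 genes of each count table. RNA-seq was done on skeletal muscle (quadriceps) of C57BL/6 mice that were either wild-type for the mitochondrial ribosomal protein MRPS5 or homozygous for the V338Y knock-in mutation, which raises translational error in mitochondria and is carried in every cell of the animal. The 15 libraries, each from 1 mouse, fall into 4 groups: 4 mice of each genotype at 3 mo, and at 19 mo 3 that were wild-type and 4 that carried V338Y. No mouse was treated, and mice are called here by the numbers in their labels. The libraries held 8250653 to 18968132 counts. Levels are counts per 1000000 (CPM), scaled by the trimmed mean of M values (TMM).

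Satellite cells are the stem cells of skeletal muscle and lie between the fiber and its basal lamina. At rest they express the transcription factor Pax7 and keep Notch signaling active. On activation they divide and switch on the myogenic regulatory factors, of which Myf5 and Myod1 act early and Myf6 (MRF4) is the member most abundant in adult fibers. Cdh15 (M-cadherin) joins the satellite cell to its fiber, Sdc4 is a heparan sulfate proteoglycan on their surface, Calcr is the calcitonin receptor of resting satellite cells, Chrdl2 encodes a secreted antagonist of bone morphogenetic proteins, and Hes1 and Heyl are transcriptional repressors downstream of Notch.

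Myogenic regulatory factors bind E-boxes, here CANNTG, a motif that reads as CANNTG on either strand. RefSeq (GRCm38.p6) gave the 250 bases before the transcription start for 5 of the 10 genes, among them Myf5, Sdc4 and Cdh15, whose upstream sequences are shown because the first pair changed with age and the last had the most motifs. The Myf5 sequence lies at chr10:107486135-107486384 on the minus strand, that of Sdc4 at chr2:164443189-164443438 on the minus strand and that of Cdh15 at chr8:122848124-122848373 on the plus strand. The starts are those of RefSeq. In the gene annotation used here for exon lengths, Cdh15 begins at 122847966 and Sdc4, on the minus strand, at 164443887. The sequences of Cdh15, Sdc4 and Pax7 therefore lie inside the genes as annotated there. Capitals mark E-boxes, and bases without capitals hold none.
Myf5: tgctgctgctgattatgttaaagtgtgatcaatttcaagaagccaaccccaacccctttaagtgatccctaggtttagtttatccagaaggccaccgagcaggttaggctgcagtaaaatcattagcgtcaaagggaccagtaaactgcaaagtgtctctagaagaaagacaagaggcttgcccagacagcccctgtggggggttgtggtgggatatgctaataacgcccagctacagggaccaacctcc
Sdc4: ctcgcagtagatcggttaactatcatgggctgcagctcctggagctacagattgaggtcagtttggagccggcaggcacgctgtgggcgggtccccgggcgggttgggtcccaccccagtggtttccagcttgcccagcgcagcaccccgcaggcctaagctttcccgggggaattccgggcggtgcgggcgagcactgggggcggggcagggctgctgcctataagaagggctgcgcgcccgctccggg
Cdh15: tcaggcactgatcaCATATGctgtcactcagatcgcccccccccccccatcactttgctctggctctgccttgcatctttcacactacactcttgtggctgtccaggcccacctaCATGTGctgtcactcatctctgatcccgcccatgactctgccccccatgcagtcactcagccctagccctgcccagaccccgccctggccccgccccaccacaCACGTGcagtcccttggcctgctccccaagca
The Cdh15 sequence held 3 matches, starting 236, 135 and 32 bases before the start, and 12.2% of 32851 RefSeq promoters held 3 or more over the same length. The Myf5, Sdc4 and Pax7 sequences held none, whereas 66.2% of all promoters held at least 1. Calcr has 2 listed starts, of which 1 had a single match (CACCTG) 115 bases before it. These matches describe letters and not binding.

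The labelled tissue was checked against its markers. None of the 10 skeletal muscle fiber markers was at 0 throughout a group, and their summed level ran from 168730 to 322749 CPM. Mrps5 itself was at 21.2 to 27.5 CPM at 3 mo and 14.96 to 19.3 CPM at 19 mo, and since the allele is a point mutation its level does not check the genotype. The study's methods describe 3 mo mice as female, yet Xist, expressed from the inactive X chromosome, was at most 0.575 CPM in all 8 mice at 3 mo and between 506 and 631 CPM in all 7 mice at 19 mo. The Y-linked Ddx3y ran the other way, from 163 to 202 CPM at 3 mo and at most 0.0827 CPM at 19 mo. By these genes the mice at 3 mo were male and those at 19 mo female. Age and sex therefore cannot be told apart in any age comparison given here. Within each age the 2 genotypes did not differ in this respect.

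The 10 genes spanned a wide range of abundance. For none of them, Sdc4 and Hes1 included, was the cell of origin in the whole tissue tested. Per kilobase of exon, the mean level over the 15 mice was 63.0 CPM for Myf6, 16.1 for Sdc4, 7.97 for Myod1, 4.68 for Cdh15, 3.99 for Hes1, 0.798 for Heyl, 0.684 for Myf5, 0.221 for Pax7, 0.113 for Chrdl2 and 0.0943 for Calcr. Myf6 exceeded Sdc4, Sdc4 exceeded Myod1, Hes1 exceeded Heyl and Myf5 exceeded Pax7 in 15 of 15 mice. Other neighbors were less clearly ordered: Heyl lay above Myf5 in 9 mice, Chrdl2 above Calcr in 10, Cdh15 above Hes1 in 12, and Myod1 above Cdh15 and Pax7 above Chrdl2 in 13 each. In raw counts, Chrdl2 had 2 to 13 and Calcr 1 to 11 per mouse, so both fell short of the filter of 10 counts in 50% of the mice of a group. The other 8 genes passed it in every comparison.

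**Figure D1:**
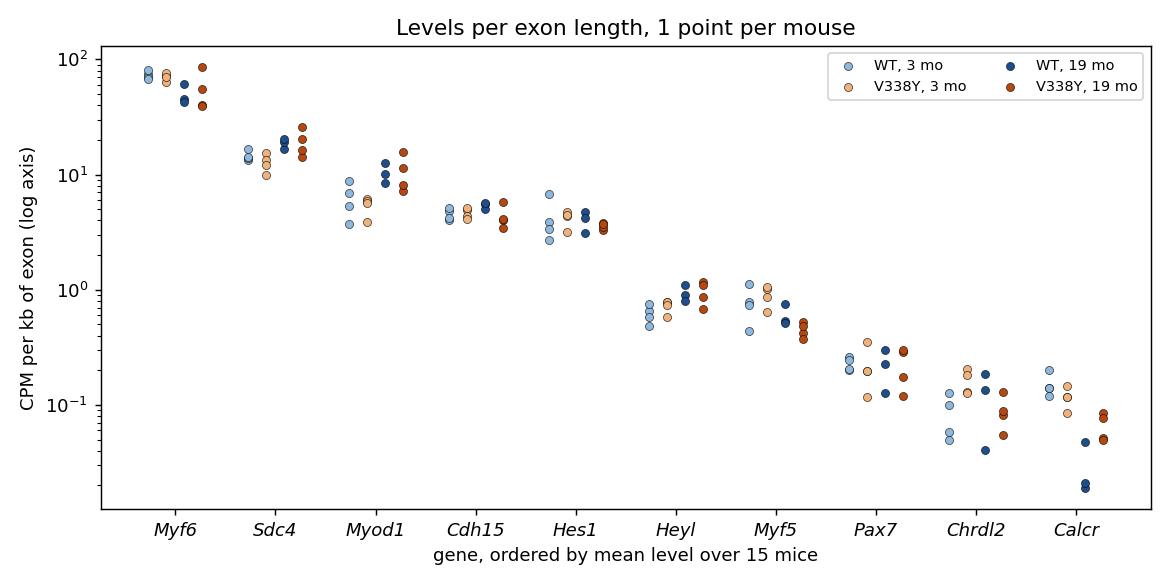
Level of each of the 10 genes in CPM per kilobase of exon on a log axis, with 1 point for each of the 15 mice. Myf6 is the most abundant at a mean of 63.0 and Calcr the least at 0.0943.

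**Figure D2:**
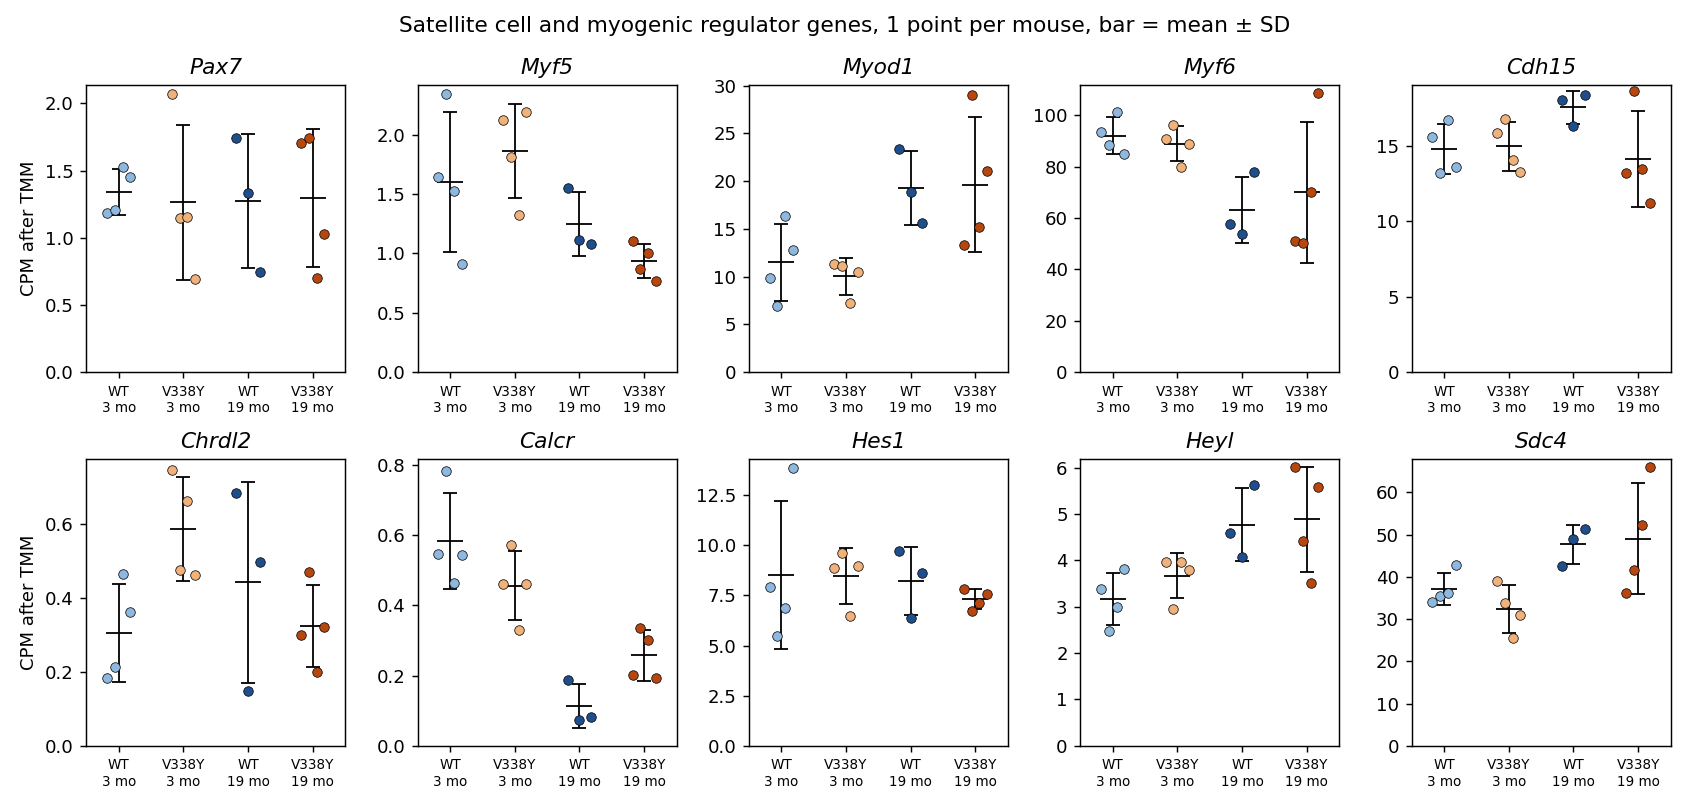
TMM-normalised CPM of each gene by group, with 1 point per mouse and the mean ± SD. Myod1 and Sdc4 are higher on average at 19 mo in both genotypes. Myf5 and Myod1 separate by age in V338Y mice, and Myf6, Heyl and Calcr in wild-type mice.

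The first comparison asked how these genes differed between 3 mo and 19 mo in each genotype. In wild-type mice Myod1, Heyl and Sdc4 rose and Myf6 fell, and in V338Y mice Myod1 and Sdc4 rose and Myf5 fell. Fold changes ranged from 1.98-fold up for Myod1 to 0.505 of the 3 mo level for Myf5, both in V338Y mice. Pax7, Cdh15 and Hes1 did not pass the test in either genotype. By edgeR's quasi-likelihood test with Benjamini-Hochberg adjustment, 4 of the 8 tested genes (50%) passed in wild-type mice, where 36.2% of all 13657 tested genes did, and 3 of 8 (37.5%) passed in V338Y mice, where 46.9% of 13868 did. In wild-type mice 3 of the 8 were called higher and 1 lower, beside 18.3% and 17.8% of all genes, and in V338Y mice 2 higher and 1 lower, beside 24.4% and 22.5%. The age groups did not overlap for 2 of the 8 in wild-type mice (43.4% of all genes) and for 2 of the 8 in V338Y mice (42.2%). These shares do not set the 8 genes apart from the rest. The pair of age comparisons share no mice.

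Among the myogenic regulatory factors, Myod1 was at 9.85, 6.95, 16.3 and 12.8 CPM in wild-type mice 1 to 4 at 3 mo, and at 23.3, 18.9 and 15.6 CPM in wild-type mice 2, 4 and 5 at 19 mo. In V338Y mice it was at 11.3, 11.1, 7.20 and 10.5 CPM at 3 mo, and at 13.3, 29.0, 15.2 and 21.1 CPM in mice 2 to 5 at 19 mo. The V338Y age groups did not overlap, whereas 1 wild-type mouse at 3 mo lay above the lowest at 19 mo. Myod1 rose by 0.75 on the log2 scale in wild-type mice (SE 0.26, 1.68-fold, adjusted p = 0.0465) and by 0.99 in V338Y mice (SE 0.24, 1.98-fold, adjusted p = 0.00807). The wild-type call was lost without any one of 19 mo mice 2 and 4 and 3 mo mice 1, 2 and 4, with adjusted p = 0.138, 0.106, 0.0971, 0.0704 and 0.0720, respectively. The V338Y call held without any single mouse.

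Myf5, which lies next to Myf6 on chromosome 10 (GRCm38, 107482908 to 107486134, against 107492853 to 107494737 for Myf6), was much less abundant, at 10 to 37 counts per mouse. In wild-type mice it was at 1.64, 2.34, 1.53 and 0.907 CPM at 3 mo and 1.55, 1.11 and 1.08 CPM at 19 mo. In V338Y mice it was at 2.13, 1.81, 1.32 and 2.19 CPM at 3 mo and 1.10, 0.872, 1.004 and 0.771 CPM at 19 mo. All 4 aged V338Y mice lay below all 4 young ones, and the wild-type groups overlapped. Myf5 fell by 0.99 on the log2 scale in V338Y mice (SE 0.27, adjusted p = 0.0143), and the call held without any single mouse. In wild-type mice the log2 difference was -0.36 (95% interval -1.12 to 0.39, adjusted p = 0.423).

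Myf6 was at 93.5, 88.3, 101 and 85.1 CPM in wild-type mice at 3 mo and at 57.8, 53.6 and 77.8 CPM at 19 mo. The groups did not overlap. It fell by 0.55 on the log2 scale (SE 0.14, adjusted p = 0.0134), and without 19 mo mouse 4 the adjusted p was 0.0559 and with all 15 mice in 1 fit it was 0.0636. In V338Y mice it was at 90.6, 96.2, 79.7 and 89.0 CPM at 3 mo and at 50.9, 50.2, 70.1 and 109 CPM at 19 mo. Aged V338Y mouse 5 had the highest Myf6 level of all 15 mice, while the other 3 lay below every young V338Y mouse. The log2 difference was -0.33 (SE 0.22, adjusted p = 0.246) with all mice and -0.61 (adjusted p = 0.00531) without that mouse. The neighboring Myf5 had its lowest V338Y value, 0.771 CPM, in the same mouse.

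Of the genes of satellite cell identity, Pax7 was at 1.19, 1.21, 1.53 and 1.45 CPM in wild-type mice at 3 mo and at 1.74, 1.33 and 0.744 CPM at 19 mo. In V338Y mice it was at 2.07, 1.14, 1.16 and 0.692 CPM at 3 mo and at 1.70, 1.74, 0.703 and 1.03 CPM at 19 mo. The age groups overlapped fully in both genotypes. The log2 differences were -0.06 in wild-type mice (95% interval -0.76 to 0.65) and 0.00 in V338Y mice (-0.99 to 0.99). At 6 to 36 counts per mouse, changes up to about these bounds were compatible with the data. Cdh15 was at 13.2 to 16.7 CPM in young and 16.3 to 18.4 CPM in aged wild-type mice, and at 13.3 to 16.8 and 11.3 to 18.6 CPM in young and aged V338Y mice. Its log2 differences were 0.25 (95% interval -0.01 to 0.51, adjusted p = 0.117) and -0.07 (-0.42 to 0.27, adjusted p = 0.716). In whole tissue, fewer cells of a type and less RNA per cell cannot be told apart.

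Sdc4 was at 34.02, 35.5, 36.2 and 42.8 CPM in wild-type mice at 3 mo and 42.6, 49.0 and 51.4 CPM at 19 mo. In V338Y mice it was at 39.0, 33.8, 25.5 and 31.0 CPM at 3 mo and 36.2, 41.6, 52.3 and 66.0 CPM at 19 mo. In each genotype the highest young mouse lay above the lowest aged one, and aged V338Y mouse 5 was again the highest of all. Sdc4 rose by 0.36 on the log2 scale in wild-type mice (SE 0.11, 1.29-fold, adjusted p = 0.0281) and by 0.61 in V338Y mice (SE 0.19, 1.53-fold, adjusted p = 0.0255). The wild-type call was lost without 19 mo mouse 4 or 5 or 3 mo mouse 1, 2 or 3, with adjusted p = 0.1002, 0.0905, 0.0686, 0.0633 and 0.0691, respectively, and with all 15 mice in 1 fit (0.122). The V338Y call was lost without 19 mo mouse 4 or 3 mo mouse 2, 3 or 4, with adjusted p = 0.0570, 0.0507, 0.0738 and 0.0609, and kept without mouse 5.

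Calcr, too sparse for the test, was at 0.547, 0.781, 0.464 and 0.544 CPM in wild-type mice at 3 mo and at 0.187, 0.0741 and 0.0827 CPM at 19 mo. The wild-type groups did not overlap. Summed over mice and scaled by library size, 30 counts at 3 mo against 5 at 19 mo gave a ratio of 0.205 (95% interval 0.0620 to 0.533, counting error only). In V338Y mice Calcr was at 0.460, 0.572, 0.331 and 0.461 CPM at 3 mo and 0.200, 0.335, 0.301 and 0.193 CPM at 19 mo, and 22 against 13 counts gave a ratio of 0.570 (0.264 to 1.18). The highest aged V338Y mouse lay just above the lowest young one. With no filter on low counts, edgeR gave a log2 difference of -2.24 in wild-type mice (adjusted p = 0.0151) and -0.80 in V338Y mice (adjusted p = 0.309). Chrdl2 overlapped between ages in both genotypes, at 0.148 to 0.684 CPM in wild-type and 0.201 to 0.747 CPM in V338Y mice.

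Of the Notch effectors, Heyl was at 3.37, 2.48, 2.99 and 3.81 CPM in wild-type mice at 3 mo and 4.60, 4.07 and 5.62 CPM at 19 mo, so that all 3 aged mice lay above all 4 young ones. It rose by 0.60 on the log2 scale (SE 0.20, 1.51-fold, adjusted p = 0.0428), but this call was lost without any one mouse other than 3 mo mouse 4 (adjusted p from 0.0400 to 0.142 over the 7 mice left out), by DESeq2 (adjusted p = 0.0724) and with no filter on low counts (0.0710). In V338Y mice Heyl was at 3.97, 2.95, 3.97 and 3.80 CPM at 3 mo and 6.01, 4.43, 3.51 and 5.59 CPM at 19 mo. Aged mouse 4 lay among the young mice, and the log2 difference of 0.42 (SE 0.20) did not pass (adjusted p = 0.111) unless that mouse was left out (0.54, adjusted p = 0.0471). Hes1 was at 5.46 to 13.9 CPM in young and 6.37 to 9.70 CPM in aged wild-type mice, and at 6.45 to 9.63 and 6.71 to 7.81 CPM in young and aged V338Y mice. Its log2 differences were -0.04 (95% interval -0.70 to 0.62) and -0.20 (-0.52 to 0.12).

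**Figure D3:**
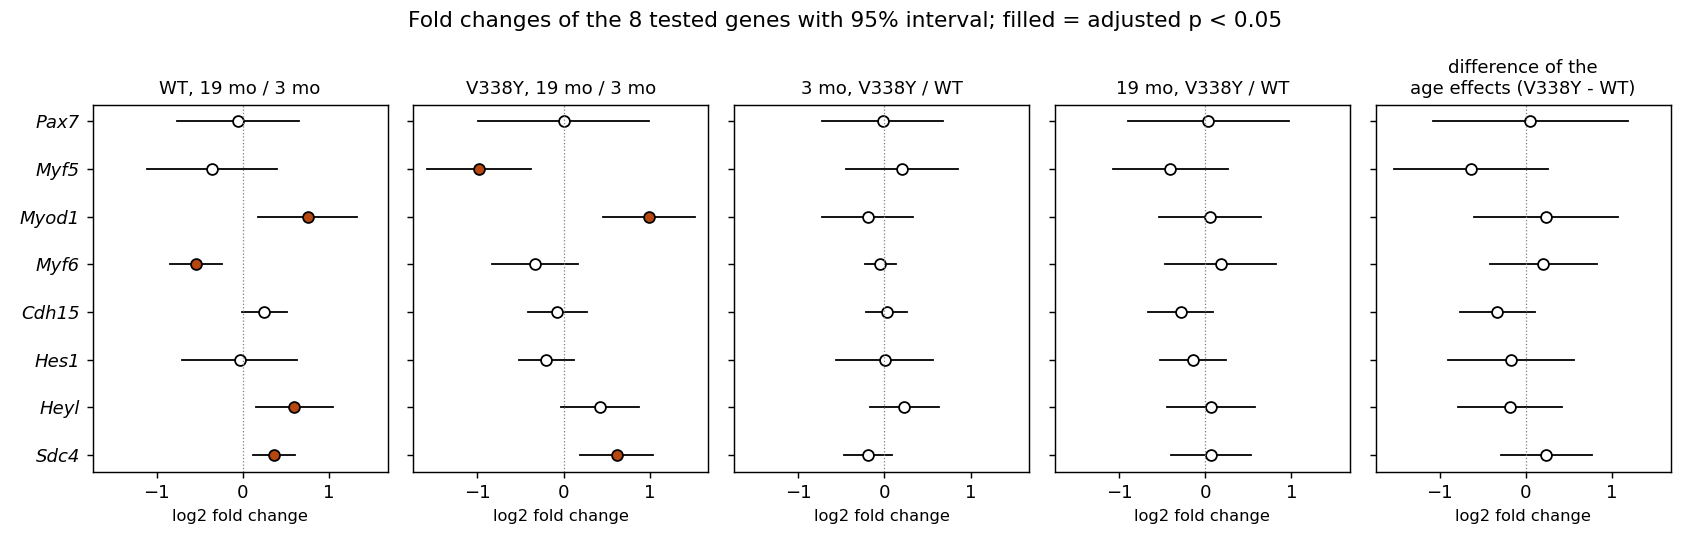
Log2 fold change of each of the 8 tested genes with its 95% interval. The panels are the 2 age comparisons (19 mo against 3 mo), the 2 genotype comparisons (V338Y against wild-type) and the interaction. The interaction is the difference of the age effects, V338Y minus wild-type. With age, Myod1 lies at 0.75 and 0.99 and Myf5 at -0.36 and -0.99 in wild-type and V338Y mice, and every genotype interval includes 0.

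Genes of the same programs, from lists by function, were read from the same fits, in which 18.3% of all genes rose and 17.8% fell with age in wild-type mice and 24.4% rose and 22.5% fell in V338Y mice. Up to 3 genes of smallest p are named per list and comparison. A gene given for 1 genotype only was not shown to be particular to it. Of 23 further genes listed for satellite cells, 3 rose and 1 fell with age in wild-type mice. In V338Y mice 7 rose and 3 fell. The median log2 differences were 0.19 and 0.36, beside 0.02 and 0.07 over all genes tested. Dag1 (dystroglycan) rose by 0.88 and 0.91 on the log2 scale (adjusted p = 0.000361 and 0.000469), Ncam1, a cell adhesion molecule, rose by 1.18 in wild-type mice (adjusted p = 0.00157) and Itgb1, the integrin beta 1 chain, fell by 0.33 (adjusted p = 0.0188). In V338Y mice the syndecan Sdc3 rose by 1.21 (adjusted p = 0.000407). The 23 genes summed to 990 to 1174 CPM per mouse, whereas Pax7 was at 0.692 to 2.07 CPM. Which cells of the whole tissue gave these transcripts was not tested, so the list does not show a change in satellite cells.

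Of the other Notch pathway genes, 11 of 26 tested rose and 0 fell in wild-type mice, and 14 of 25 rose and 0 fell in V338Y mice. Their median log2 differences were 0.37 and 0.60. The receptor Notch3 had mean levels of 16.2 ± 2.53 CPM (SD, n = 4) and 44.3 ± 9.80 CPM (n = 3) in young and aged wild-type mice and 14.9 ± 3.47 CPM (n = 4) and 50.4 ± 6.90 CPM (n = 4) in young and aged V338Y mice, and rose by 1.45 and 1.76 on the log2 scale (adjusted p = 0.000394 and 9.4e-05). The ligand Dll4 rose by 1.64 and 1.97 (adjusted p = 0.000439 and 0.000106), and the receptor Notch1 by 1.72 in V338Y mice (adjusted p = 0.000106). Notch3 is abundant in mural cells and Dll4 in endothelial cells, and the markers of those cells moved the same way. Of the mural cell markers 7 of 9 tested rose in wild-type and 8 of 10 in V338Y mice, with summed levels of 588 to 706 CPM at 3 mo and 819 to 1148 CPM at 19 mo. For the endothelial markers the counts were 5 of 10 and 6 of 10, with sums of 281 to 343 CPM and 396 to 646 CPM. Without aged V338Y mouse 5, 4 of 10 endothelial markers, 8 of 10 mural cell markers and 16 of 25 Notch pathway genes rose in V338Y mice. None of the mural cell and endothelial markers was at 0 throughout a group, and none fell. The part of these markers in the results for Heyl and the Notch genes was not tested.

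Of 22 tested differentiation genes and partners of the myogenic factors, 7 rose and 3 fell in wild-type mice and 7 rose and 4 fell in V338Y mice. Mef2d, a transcription factor that works with the myogenic factors, rose by 1.19 and 1.03 on the log2 scale (adjusted p = 0.000258 and 0.000343), and Smyd1, a muscle methyltransferase needed for sarcomere assembly, fell by 0.65 and 0.96 (adjusted p = 0.00394 and 0.00116). Myh3, the embryonic myosin heavy chain, rose by 2.49 in wild-type mice (adjusted p = 0.00326) and Srf, a transcription factor of muscle genes, fell by 0.92 in V338Y mice (adjusted p = 0.000127).

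Myod1 is also known to respond to loss of innervation. Of the denervation-responsive genes, 7 of 11 tested rose and 1 fell in wild-type mice, and 7 of 12 rose and 1 fell in V338Y mice, with median log2 differences of 0.97 and 1.07. Runx1, a transcription factor induced in denervated muscle, rose by 1.93 and 2.57 (adjusted p = 0.000333 and 0.00066), whereas Musk, the agrin-responsive kinase of the neuromuscular junction, fell by 0.86 in wild-type mice (adjusted p = 0.000244). The summed level of the list was 114 to 171 CPM at 3 mo and 138 to 332 CPM at 19 mo. Its part in the Myod1 result was not tested. The list shares Ncam1 with the satellite cell list and Myog with the differentiation list, so the counts of these lists are not independent.

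**Figure D4:**
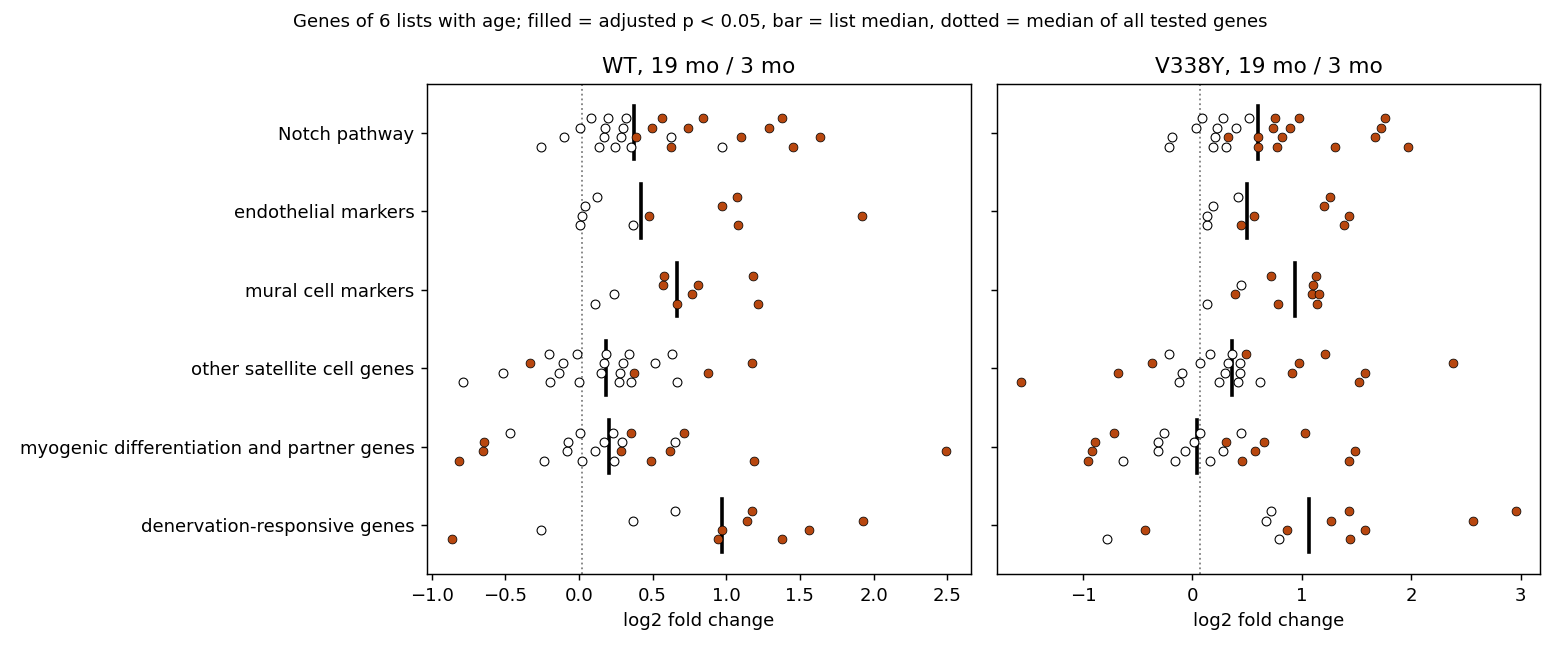
Log2 fold change with age of each tested gene, in wild-type and V338Y mice, with filled points at an adjusted p under 0.05. The lists shown are Notch pathway, endothelial, mural cell, other satellite cell, myogenic differentiation and partner, and denervation-responsive genes. Bars mark list medians, and the dotted line marks the median of all tested genes. Of the Notch pathway genes 11 of 26 and 14 of 25 rose and 0 fell.

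The lists of other cell markers were read beside the same shares of all genes, 18.3% higher and 17.8% lower in wild-type and 24.4% higher and 22.5% lower in V338Y mice. Several of these counts lie near those shares. Macrophage markers rose in 4 of 10 and 6 of 10 cases and none fell, from summed levels of 220 to 402 CPM at 3 mo to 323 to 480 CPM at 19 mo. Schwann and nerve markers rose in 2 of 8 and 6 of 8 cases, with sums of 42.6 to 57.6 CPM and 54.2 to 114 CPM. The fibro-adipogenic progenitor markers gave 2 higher and 2 lower of 10 in wild-type mice and 0 higher and 2 lower in V338Y mice, or 2 higher and 1 lower there without aged mouse 5. Of the skeletal muscle fiber markers 2 of 10 fell in wild-type and 4 of 10 in V338Y mice, and none rose. Without aged V338Y mouse 5, 5 of 10 fiber markers fell in V338Y mice. In the same setting 8 of 10 macrophage and 5 of 8 Schwann and nerve markers rose. The summed fiber level was 263537 to 322749 CPM at 3 mo and 168730 to 287828 CPM at 19 mo, and its part in the results for Myf6 and the other genes was not tested.

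The second comparison asked whether V338Y mice differed from wild-type mice of the same age. At 3 mo 0 of the 8 tested genes passed edgeR's test, where 0.075% of all 13333 tested genes did, and at 19 mo 0 of 8 passed, where 0.0434% of 13833 did. At an unadjusted p under 0.05 the count was 0 of 8 at both ages, against 9.7% and 8.93% of all genes, and by DESeq2 it was 0 as well. So few genes of any kind passed that a count of 0 says little about these 8. The genotype comparisons share their mice with the age comparisons.

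The intervals show what sizes of difference were compatible with the data. At 3 mo the log2 differences ran from -0.19 for both Myod1 and Sdc4 to 0.23 for Heyl, and the widest 95% intervals reached -0.72 (Myod1 and Pax7) and 0.85 (Myf5). At 19 mo they ran from -0.41 for Myf5 (95% interval -1.07 to 0.26, adjusted p = 0.695) to 0.18 for Myf6 (-0.46 to 0.82, adjusted p = 0.874), and the lowest adjusted p was 0.624, for Cdh15 at -0.29 (-0.66 to 0.09). Pax7 had an interval of -0.90 to 0.97 at 19 mo. None of the 8 separated the genotypes completely at 3 mo, where 4.71% of all tested genes did, or at 19 mo, where 9.79% did.

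The 2 sparse genes were compared by summed counts. Chrdl2 was at 0.182, 0.213, 0.464 and 0.363 CPM in wild-type mice at 3 mo and at 0.747, 0.477, 0.662 and 0.461 CPM in V338Y mice, so that a single V338Y mouse lay just below the highest wild-type mouse. Summed counts of 16 and 30 gave a ratio of 1.97 (95% interval 1.04 to 3.87, counting error only), and edgeR with no filter on low counts gave a log2 difference of 0.94 (adjusted p = 0.670). At 19 mo the ratio was 0.740 (0.361 to 1.503). Calcr was higher in all 4 aged V338Y mice than in all 3 aged wild-type mice, and 5 against 13 counts gave a ratio of 2.15 (0.719 to 7.70), an interval that includes 1. Without the filter the log2 difference was 1.06 (adjusted p = 0.689). At 3 mo the Calcr ratio lay the other way, at 0.771 (0.424 to 1.38). The Calcr values at 19 mo rested on 1 to 5 counts per mouse.

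Whether age acted differently in the 2 genotypes was tested as an interaction over all 15 mice. None of the 8 genes passed edgeR's test (0 at an unadjusted p under 0.05, and 0 by DESeq2), and 0% of 14128 genes did, with 9.63% at an unadjusted p under 0.05 and 26 genes by DESeq2. The log2 difference between the age effects, V338Y minus wild-type, was -0.64 for Myf5 (95% interval -1.53 to 0.25, adjusted p = 0.633), 0.23 for Myod1 (-0.60 to 1.06), 0.20 for Myf6 (-0.42 to 0.83), -0.19 for Heyl (-0.79 to 0.41) and 0.24 for Sdc4 (-0.28 to 0.76). The age calls made in 1 genotype, those of Myf5, Myf6 and Heyl, were therefore not shown to differ between genotypes.

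Within groups, the members' levels were compared over mice. After each group's mean was taken out, log2 levels of Myf6 and Sdc4 had the largest of 28 pairwise correlations over the 15 mice (Pearson r = 0.75, Spearman rho = 0.67). Without aged V338Y mice 5 and 3, which lay farthest out for Myf6, r was 0.57 over 13 mice. The group means taken out there were still those of all 15 mice. Myod1 with Cdh15 followed at r = 0.52, Pax7 with Myf6 at r = -0.49 and Hes1 with Heyl at r = 0.45. These values are descriptions over mice that share the normalization and differ in depth.

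The tested genes most like each of the 8 members that passed the filter over the 15 mice, by the same measure among 14128 genes, were Alg3 for Pax7 (r = 0.90), Surf1 for Myf5 (0.85), Cystm1 for Myod1 (0.87), Igkj5 for Myf6 (0.95), Rasa4 for Cdh15 (0.84), Dach1 for Hes1 (0.86), Mgat5 for Heyl (0.90) and Vcam1 for Sdc4 (0.92). Next in order came Mfsd3 and Tspan9 for Pax7, Slc39a14 and Slc25a33 for Myf6, and Aoc2 and Tmem259 for Sdc4. Without aged V338Y mouse 5 the values were 0.90 for Igkj5 and 0.88 for Vcam1, again with the group means of all 15 mice taken out. Each gene named was picked as the highest among 14128 over only 15 mice, and such maxima are high by selection alone. They are descriptions without a test and do not show shared regulation.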

How the data were processed

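Skeletal muscle RNA was extracted with TRIzol, and stranded TruSeq libraries were sequenced as single-end reads of 126 bp on an Illumina HiSeq. The authors deposited expected counts per gene (RSEM, Ensembl annotation), given as whole numbers and used as deposited. Per the labels' processing notes, CASAVA 1.8, bcl2fastq 1.8.4, STAR 2.4.2a and GRCm38 were used. The methods name another mouse build, and positions here are GRCm38. Of 39179 gene IDs, 37607 had a symbol. No 2 of the 15 files were identical (105 pairs).

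Groups came from the labels. A gene was tested where 50% or more of the mice of any group compared had 10 counts or more, as in the study's methods, with edgeR 4.0.16 (R 4.3.3) by TMM and the quasi-likelihood test, with Benjamini-Hochberg adjustment over all tested genes and a threshold of 0.05. The 5 comparisons were age in each genotype, genotype at each age and their interaction. Intervals of log2 differences are t-based 95% intervals, those of summed sparse counts are exact and cover counting error only. Correlations used log2(CPM + 0.5). Nothing says whether libraries of a group were prepared together, so p-values measure the spread between these mice. Scripts were tested on simulated data. Alternatives were RLE and upper-quartile scaling, no filter, DESeq2 1.42.0, all 15 mice in 1 fit, the mouse number as a replicate block, and leaving out each mouse. The marker lists without aged V338Y mouse 5 were added after seeing the data.

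Mouse numbers were taken to pair the groups where same-numbered mice deviated together (r over 0.1 in 3 or more pairs). This rule was met for genotype at 19 mo (r = 0.137 to 0.410 over 3 pairs, other pairs -0.416 to 0.486) and not elsewhere. The same-numbered values lay within the range of the other pairs, so pairing was not shown. With the block 0 of the 8 genes passed there, against 110 of all genes and 6 without it. All 10 members are named, with up to 3 genes of smallest p from each list and the genes most like each member. Members and lists were chosen with earlier results of these data known.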

Additional observations from a re-analysis of the deposited data

Results flagged for a closer look

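Heyl in V338Y mouse 2 at 3 mo stood apart from its group, at 2.95 CPM against 3.80 to 3.97 CPM in the other 3 mice. The gap was 0.835 of the group's range, above Dixon's critical value for 4 samples at the 95% level. Over the 30 groups of 4 mice looked at (10 genes in 3 groups), 1 was marked in this way, and chance marks about 1 in 20.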

How the results depend on the processing

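The age calls of these genes were close to the threshold in wild-type mice. The 4 members called there were 2 with all 15 mice in 1 fit and 2 with a replicate block, and 0 to 3 when 1 mouse was left out. In V338Y mice the count was 3 under every alternative and 2 to 4 when 1 mouse was left out, although with the block Myf5 was lost (adjusted p = 0.0986) and Myf6 gained (log2 -0.63, adjusted p = 0.0111). No member was called for genotype or interaction under any alternative run.

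Over all genes, the block gave 2229 age calls in wild-type mice in place of 4940. For genotype at 3 mo, 10 calls became 33 with no filter, 66 by DESeq2 and 3 to 14 without 1 mouse. For genotype at 19 mo, 6 became 14 with no filter, 62 by DESeq2, 110 with the block and 2 to 7 without 1 mouse. For the interaction, 0 became 5 with no filter, 26 by DESeq2 and 28 with the block. The cause was not tested.

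Directions turned only for log2 differences that had not passed the test. With the block, Pax7 was at 0.23 for age in wild-type mice and -0.10 for genotype at 19 mo, Cdh15 at 0.048 for age in V338Y mice and Myod1 at -0.19 for genotype at 19 mo. For age in V338Y mice Pax7 was at -0.013 with no filter, -0.014 by RLE, -0.0071 by DESeq2 and -0.016 with all 15 mice. Hes1 for genotype at 3 mo was at -0.0022 by DESeq2 and -0.0014 with all 15 mice. Leaving out 1 mouse, Pax7 ranged from -0.36 to 0.19 for age in wild-type mice, -0.20 to 0.36 for age in V338Y mice, -0.40 to 0.15 for genotype at 3 mo, -0.22 to 0.34 for genotype at 19 mo and -0.21 to 0.43 for the interaction. Hes1 ranged from -0.21 to 0.29 for age in wild-type mice and -0.16 to 0.33 for genotype at 3 mo. Cdh15 ranged from -0.25 to 0.039 for age in V338Y mice and -0.028 to 0.093 for genotype at 3 mo. Myf6 ranged from -0.087 to 0.0030 for genotype at 3 mo, -0.11 to 0.36 at 19 mo and -0.063 to 0.38 for the interaction, and Myod1 from -0.38 to 0.034, -0.18 to 0.22 and -0.016 to 0.41. For genotype at 19 mo Heyl ranged from -0.044 to 0.20 and Sdc4 from -0.11 to 0.19. Depth limits Pax7, Myf5, Chrdl2 and Calcr most, at 1 to 37 counts per mouse.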

Other observations

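Aged V338Y mouse 5, which had the highest Myf6 and Sdc4 levels of all 15 mice, also stood apart in genes outside the program. The summed level of 12 cell cycle genes was 158 CPM in this mouse and 26.2 to 32.9 CPM in the other 3 aged V338Y mice. Mki67, a marker of dividing cells, reached 83.8 CPM. Over the 8 young mice it was at 0.464 to 3.85 CPM, a comparison that also spans age and sex. In mouse 5 the denervation-responsive genes summed to 332 CPM, against 138 to 242 CPM in the other 3 aged V338Y mice. Of the adipocyte markers, 2 of 8 fell with age in the wild type, where 17.8% of all genes did. In V338Y mice 4 of 8 rose, where 24.4% of all genes did. None of these markers passed the test of the interaction. In summed level, young wild-type mouse 1 stood at 1210 CPM, against 309 to 625 CPM in the others of its group. Aged V338Y mouse 4 was at 1045 CPM, against 198 to 539 CPM in the others of its group. Of the 5 tested cell cycle genes, 1 rose with age in the wild type (Mki67) and 2 in V338Y mice (Mki67 and Top2a). Over all genes 18.3% and 24.4% rose. The V338Y values of the cell cycle genes rested largely on mouse 5. In an alternative chosen after seeing the data, without that mouse, the log2 difference of Mki67 was 1.36 (adjusted p = 0.0360) in place of 3.74 (0.0219), and that of Top2a was 0.93 (adjusted p = 0.199) in place of 2.61 (0.0416).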
